A study of Mus musculus with 20 samples.

Results

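The untreated hippocampal culture was described by setting its RNA against a universal mouse reference RNA on the same arrays. Its members were the 5 arrays titled as controls, out of 20 arrays in the series, and every gene probe on them was read. The culture was of dissociated mouse hippocampal neurons at day 21 in vitro, kept in wells and given vehicle for 24 hours. The vehicle, the strain and the age of the animals were not given in the sources used here. Culture RNA carried the red dye Cy5, and the reference RNA (Stratagene) carried the green dye Cy3. The dyes were not swapped, so that a dye effect on a probe and a difference between the RNAs cannot be told apart. The other 15 arrays held cultures treated with AP5, NVP or Ro25 and entered 2 alternative fits only. The reference was 1 RNA preparation and its own spread is in no test. Whether the 5 control arrays stand for 5 cultures or animals is not said in the labels, and p-values therefore measure only the spread between these arrays, which may be technical.

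Dissociated hippocampal cultures hold glutamatergic pyramidal and granule neurons, GABAergic interneurons and varying numbers of glia that grow beneath them. By the third week in vitro such neurons have axons, dendrites and synapses and no longer divide. The universal reference is a pool of RNA from mouse cell lines, of the kind used to give most probes some signal. A ratio to it tells where the culture stands against that pool, which is not a level in cells, and ratios of different genes are compared here as ratios only. Because whole cultures were extracted, fewer cells of a type and less RNA per cell cannot be told apart.

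Each value is a log2 ratio of culture over reference, so that 1 stands for 2-fold more signal from the culture. A gene was called rich or poor when limma's treat test placed its ratio more than 2-fold from equality with a Benjamini-Hochberg adjusted p under 0.05. Of 20965 genes tested, 3243 were rich (15.5%) and 3103 were poor (14.8%), or 30.3% in either direction. Against plain equality, limma's eBayes test placed 9224 genes higher (44%) and 8448 lower (40.3%). The median ratio of all genes was 0.05. These shares are the background for every count below. Added spike-in transcripts of known ratio, present on each array, gave another zero point. With each array centred on them, the median of all genes rose to 0.71, 4893 genes were rich and 1288 poor, and 79.2% of the calls were rich in place of 51.1%. For genes read on all 5 arrays the order of the ratios is the same under either zero point, and counts under the spike-in zero point are given below where they differ by over 1.5 times and by 2 or more genes.

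**Figure D1:**
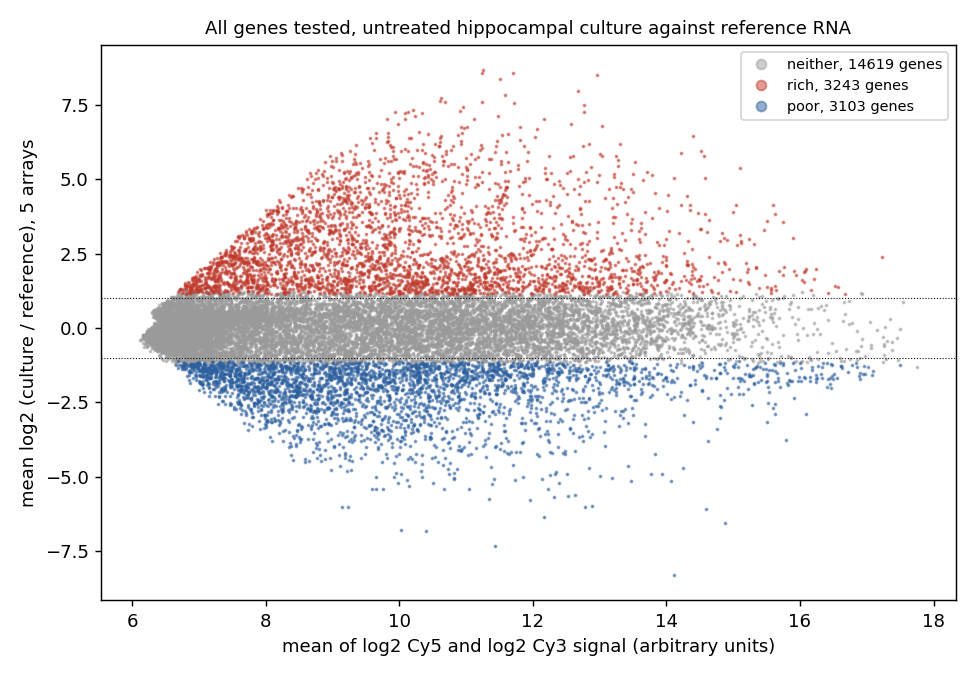
Mean log2 ratio of culture over reference (vertical axis) against the mean of the log2 red and green signals (horizontal axis, arbitrary units) for 20965 genes, each the mean of 5 control arrays; dotted lines mark 2-fold. The 3243 rich genes reach 8.67 and the 3103 poor genes reach -8.30, and the range narrows at low signal, where the constant of 50 added to both channels limits the ratio.

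The 5 arrays gave much the same values. Their pairwise correlation across genes was 0.977 to 0.994, and the median gene had an SD of 0.136 over the arrays. Control arrays 1, 2, 4 and 5 were on 1 slide and array 3 on another, all with the same scan day. Between 62.2% and 68.4% of probes were well above background in the red channel and 69.6% to 77.1% in the green channel, and no probe was saturated. In 16143 genes both RNAs were above background on all 5 arrays, and 2866 of these were rich and 2599 poor. The reference was above background on no array in 390 genes and the culture on none in 1457, and where such a gene is singled out for the size of its ratio the value given is a bound ("at least"). A probe could enter through 1 RNA alone, and a list member seen in only 1 RNA could hardly be called in the other direction. Counts of members above background in both RNAs on all 5 arrays are therefore added below for some lists with many such members. Other genes called below were above background on some arrays only. In the reference these were Gfap and Aqp4 (3 of 5 arrays), Gabra4 and Kcnd2 (2), and Neurod6, Sox2, Rgs5 and Cacnb4 (1). In the culture they were Ddc (4), Adgre1 and Lcn2 (2) and Afp and Ifi44 (1). Of 7214 genes with several tested probes, 2205 had probes on both sides of 0, and the gene was then read from its brightest probe. Among rich genes with several probes, 615 of 1492 (41.2%) had every probe beyond 2-fold, and among poor genes 532 of 1230 (43.3%).

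Among genes measured in both RNAs, the highest ratio was that of Slc1a2, the main glutamate transporter of astrocytes, with log2 ratios of 8.64, 8.58, 8.77, 8.94 and 8.42 on arrays 1 to 5 (mean 8.67 ± 0.20 SD, n = 5, a 408-fold ratio, limma adjusted p = 1.1e-10). Snap25, a SNARE protein of synaptic vesicle release, had 7.65, 7.85, 7.78, 8.05 and 7.78 (7.82 ± 0.14). All 5 arrays of each gene lay far above the 2-fold line. Other probes read lower: the lowest probe of Slc1a2 gave 0.93, whereas that of Snap25 gave 4.79. In the authors' value table, read from its own brightest probe, Slc1a2 was at 0.95 and was not called. The 15 highest also held Clstn2, Gpm6a, Sparcl1, Gpm6b, Chl1, Egr4, Snap91, Celf3, Pgbd5, Chgb, Ntrk2 and Prdm8, with means from 7.31 to 8.57. The lowest probes of Prdm8, Clstn2 and Pgbd5 gave 0.44, 0.90 and 2.73. Those of Chl1 and Ntrk2 gave 3.81 and 3.86, and those of Gpm6a and Sparcl1 gave 6.02 and 7.32. Clstn2 is a postsynaptic calsyntenin, Chl1 a neural adhesion molecule, Snap91 a clathrin adaptor of vesicle recycling, Chgb a granin of dense-core vesicles and Ntrk2 the receptor of BDNF. Where the reference was never above background, Spock3 was at least 49.9-fold, Ralyl at least 47.3-fold, Slitrk1 at least 35.1-fold and Syt4 at least 33.4-fold higher in the culture.

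The lowest ratio of all was that of Spp1, encoding the secreted protein osteopontin, with -8.22, -8.46, -8.42, -8.39 and -8.00 (mean -8.30 ± 0.19, a 315-fold lower signal, limma adjusted p = 1.1e-10). Among genes above background in both RNAs on all 5 arrays, next came Anxa3 (-7.31), Ifi202b (-6.83), the calcium-binding protein gene S100a4 (-6.55), Anxa1 (-6.37), S100a6 (-6.09) and the type I collagen gene Col1a1 (-6.00). Ndrg1, Tm4sf1, Col8a1, Ahnak, Lgals3, Col3a1 and Efemp1 followed, between -5.99 and -5.42. Where the culture was never above background, Ptprc, the CD45 antigen of blood cells, was at least 61.9-fold lower, Clec4d and Ccl4 at least 22.2- and 22.1-fold lower, and Thbd at least 21.1-fold lower. The largest ratios were more often on the rich side: 552 genes were rich by 16-fold or more and 135 were poor by as much.

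The label of the tissue, neurons, was checked against marker lists. All 18 pan-neuronal markers tested were rich, with a median of 4.88 and a range from 1.32 to 7.82. Map2, of the dendritic cytoskeleton, had 6.45, 6.36, 6.74, 6.48 and 5.89. The neuronal tubulin Tubb3 (2.90 ± 0.04), the splicing factor Rbfox3 (3.95 ± 0.10), known as NeuN, and the vesicle calcium sensor Syt1 (6.72 ± 0.32) were rich, and Eno2 was the lowest (1.32 ± 0.24, limma adjusted p = 0.0115, and not called with the scanner's processed signals at 1.22). The lowest probe of Map2 gave 1.96. The list mean stayed between 4.50 and 4.88 over the arrays.

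Both main neuron classes had rich markers. Of 14 excitatory neuron markers tested, 12 were rich and none poor (median 3.43). Of those above background in both RNAs on all 5 arrays, 8 of 9 were rich. The vesicular glutamate transporter Slc17a7 had 3.50, 3.34, 3.43, 3.60 and 3.21, all above 3. The other vesicular transporter, Slc17a6, was not called (0.78 ± 0.16). Arpp21 (6.38 ± 0.19) and the vesicle protein gene Sv2b (5.73 ± 0.17) had high ratios, and the pyramidal neuron factor Neurod6 was rich with the reference near background. Of 15 inhibitory neuron markers tested, 10 were rich and none poor (median 3.59). The GABA-synthesising enzyme Gad1 had 5.61, 5.73, 5.75, 5.65 and 5.33, and the vesicular GABA transporter Slc32a1 (6.18 ± 0.11) and Gad2 (5.30 ± 0.15) were in the same range. Dlx1 (0.28 ± 0.29), Dlx2 (-0.23 ± 0.23) and Sp8 (0.39 ± 0.21), factors of immature interneurons, were not called. Reln, secreted by Cajal-Retzius cells and some interneurons, was rich with a wide spread (3.35, 2.68, 3.80, 3.15 and 2.40), and 3 of the 7 Cajal-Retzius markers tested were rich and 1, Ebf3, was poor (-3.24), with probes on both sides of 0. With the scanner's processed signals 5 of the 7 were rich.

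**Figure D2:**
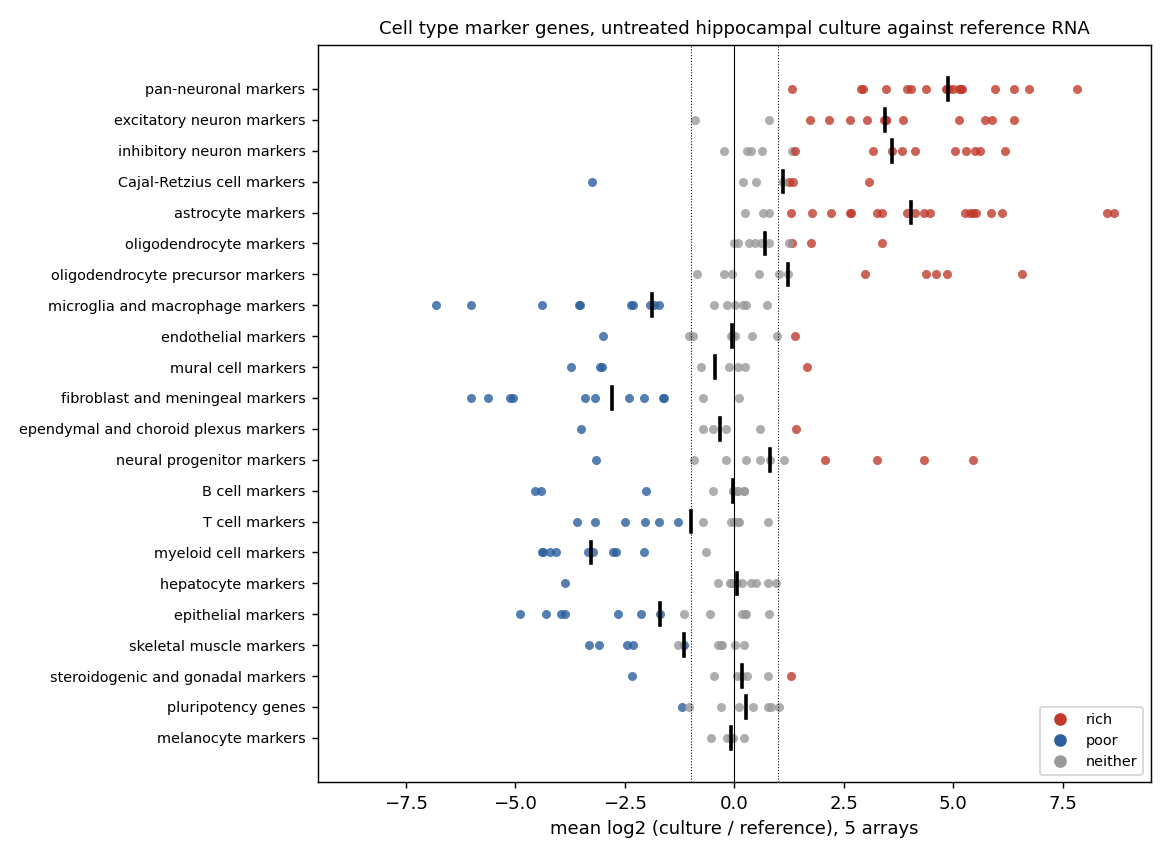
Mean log2 ratio of culture over reference over 5 control arrays for each tested gene of 22 cell type marker lists; points are genes coloured by call, black bars are list medians and dotted lines mark 2-fold. Neuronal and astrocyte lists lie to the right, and the myeloid and fibroblast lists to the left, with medians of -3.28 and -2.79.

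Astrocyte markers were also rich, beside the label neurons: 19 of 22 tested and none poor, with a median of 4.03. Gfap, the intermediate filament of astrocytes, had 5.80, 5.57, 3.98, 5.11 and 5.89 (5.27 ± 0.78), the widest spread of the list. Array 3 was lowest for it, and likewise for the water channel Aqp4, with 4.28, 3.91, 3.18, 3.70 and 4.59. Array 3 also had the lowest list mean, 3.59 against 3.93 to 4.12 on the others, and it was the array on another slide. Slide and sample cannot be told apart with 1 array there. The glutamate transporter Slc1a3 (5.51 ± 0.12, with another probe at 0.49 and 0.52, not called, in the value table) and Mlc1 (6.12 ± 0.11), a membrane protein of astrocyte endfeet, were steadier. The 3 markers not called were the gap junction gene Gja1 (0.24 ± 0.33), the bicarbonate transporter Slc4a4 (0.64 ± 0.11) and the sodium pump subunit Atp1b2 (0.79 ± 0.29).

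Markers of the oligodendrocyte lineage were rich in part. Of 11 precursor markers tested, 5 were rich, led by the lineage factors Olig1 (6.48, 6.74, 6.56, 6.68 and 6.35) and Olig2 (4.86 ± 0.12) and by Lhfpl3 (4.60 ± 0.32). Pdgfra, the receptor that marks precursors, was not called (-0.24 ± 0.33), nor was Cspg4 (1.03 ± 0.39, called rich without array 5 at 1.19). Of 10 myelin-stage markers tested, 3 were rich (5 with spike-in centring or the scanner's processed signals), among them Mbp, of compact myelin (1.57, 1.48, 1.61, 1.73 and 2.31, with array 5 the highest), and Cnp (1.31 ± 0.17). Mag (0.60 ± 0.20) and Mobp (0.34 ± 0.16) were not called, and Mog did not pass the filter on low signal.
Of 11 neural progenitor markers tested, 4 were rich and 1 poor. Sox2 (5.44 ± 0.36) and Hes5 (4.34 ± 0.50), which astrocytes and their precursors also express, and Hopx (3.26 ± 0.44) were rich. The intermediate filaments Nes (-0.18 ± 0.30, not called) and Vim (-3.17 ± 0.37, poor) were at or below the reference.

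No microglial marker was rich: 10 of 16 tested were poor and the median was -1.88. Aif1, encoding the microglial protein Iba1, had -2.02, -1.84, -2.11, -2.01 and -1.69, and Tmem119 had -2.53, -2.41, -2.33, -2.32 and -2.22. Trem2 (-4.40 ± 0.13) and the protease Ctss (-6.80 ± 0.15 on 4 arrays, array 1 being flagged by the scanner software) were further down. The fractalkine receptor Cx3cr1 was not called (0.20 ± 0.08), and P2ry12 did not pass the filter. In 10 markers of other myeloid cells 9 were poor (median -3.28), led by Cd14 (-4.38 ± 0.51) and the macrophage marker Adgre1 (-4.37 ± 0.19), with Lyz2 at -4.21 ± 0.06, whose near-identical copy Lyz1 the probes may not separate. Under the spike-in zero point 7 of the 16 microglial markers were poor, 1 was rich, and 9 of the 10 myeloid markers were poor, and Aif1 (-1.28) was no longer called. Of members above background in both RNAs on all 5 arrays, 8 of 11 microglial and 5 of 5 myeloid markers were poor.

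Fibroblast and meningeal markers were poor in 10 of 12, with a median of -2.79 and none rich. In the culture channel 10 of the 12 were above background on all 5 arrays. Col1a1 had -6.06, -6.12, -5.99, -5.82 and -6.02, a 64.1-fold lower signal, and Col3a1 (-5.62 ± 0.18), Col1a2 (-5.13 ± 0.08) and Dcn (-3.18 ± 0.33) lay in the same direction. Other probes of the collagen genes read nearer to the reference, at up to -1.53 for Col1a1, -0.28 for Col3a1 and -0.54 for Col1a2. In the value table Col1a1 was at -1.55 and Col3a1 at -1.20, both still poor. Among 8 mural cell markers 3 were poor and Rgs5, a marker of pericytes, was rich (1.67 ± 0.45, not called with the mean of probes at 1.15). Among 9 endothelial markers 1 was rich, the VEGF receptor Kdr (1.39 ± 0.34, not called without array 1, limma adjusted p = 0.07), and 1 poor, the VEGF receptor Flt1 (-3.00 ± 0.48), while Pecam1 and Cldn5 were not called, and 3 were poor with the scanner's processed signals. Of 6 ependymal and choroid plexus markers 1 was rich, the ciliary factor Foxj1 (1.41 ± 0.22), and 1 poor, the water channel Aqp1 (-3.49 ± 0.05). The medians of these 3 lists changed sign between the zero points, at -0.44 and 0.22 for the mural, -0.05 and 0.61 for the endothelial and -0.33 and 0.32 for the ependymal list, so no direction is given for them as lists.

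Lists for cells outside the brain held few rich genes. Epithelial markers were poor in 7 of 13 (Krt18 -4.89 ± 0.07, Krt19 -4.30 ± 0.09, Epcam -3.86 ± 0.09), T cell markers in 6 of 12, skeletal muscle markers in 5 of 11 and B cell markers in 3 of 10. None of these 4 lists held a rich gene, although with the spike-in zero point 1 epithelial and 1 T cell marker became rich, and 3 T cell markers were poor. Of members above background in both RNAs on all 5 arrays, 4 of 6 T cell and 2 of 6 B cell markers were poor. Hepatocyte markers (1 poor of 12, Afp at -3.85 ± 0.16), pluripotency genes (1 poor of 8) and melanocyte markers (none called of 5) mostly lay near the reference, with 2, 3 and 0 rich under the spike-in zero point. The steroidogenic and gonadal list held 1 rich gene, the inhibin subunit Inha (1.29 ± 0.16, not called in the value table at 0.44 or with the mean of probes at 0.86), and 1 poor gene, Insl3 (-2.34 ± 0.04).

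**Figure D3:**
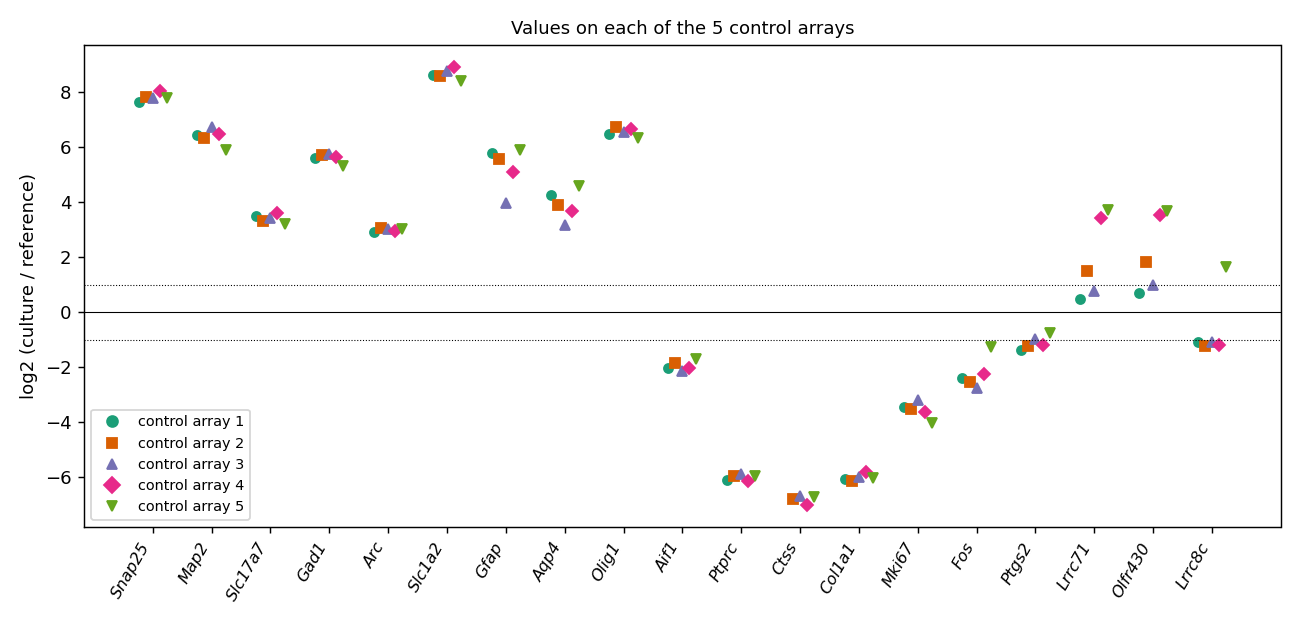
Log2 ratio of culture over reference on each of the 5 control arrays for 19 genes named in the text; symbols and colours mark the array and dotted lines mark 2-fold. Neuronal and astrocyte genes lie above 2-fold on every array, Gfap and Aqp4 are lowest on array 3, and Lrrc71 and Olfr430 are higher on arrays 4 and 5.

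Forebrain transcription factors were mostly rich: 11 of 16 forebrain and hippocampal factors tested were rich and none poor (median 1.91). Lhx2 (4.73 ± 0.14), Emx1 (1.70 ± 0.13) and Emx2 (1.27 ± 0.18), which pattern the cortex and hippocampus, were rich. The call on Emx2 was lost with median centring (1.22), in the value table (0.61) and with the mean of probes (0.94). Zbtb20 (0.76 ± 0.55), a hippocampal factor, was not called and had probes on both sides of 0. Of 13 hippocampal subfield genes tested 7 were rich (median 2.15). Grik4, a kainate receptor subunit found in CA3, had the highest ratio of them (6.18 ± 0.11), followed by Calb1 (5.23 ± 0.14), a calcium buffer of dentate granule and CA1 cells, and Mpped1 (5.21 ± 0.31). The dentate genes Dsp (-0.69 ± 0.16), C1ql2 (1.16 ± 0.32) and Tdo2 (0.17 ± 0.18) were not called.

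Lists for other positions along the body axis held no rich gene under the zero point of the arrays. Of 13 factors of other brain regions tested 4 were poor and none rich, and with the spike-in zero point 2 were poor and 1 rich. In the Hox family, which patterns hindbrain, spinal cord and trunk, 15 of 23 tested were poor and none rich (median -1.59), down to Hoxc9 at -4.77, -4.72, -4.69, -5.09 and -4.66. With the spike-in zero point 8 of the 23 were poor and 1 was rich. Among members above background in both RNAs on all 5 arrays, none of 6 factors of other regions and 4 of 8 Hox genes were poor. Of 9 genes of monoamine and acetylcholine neurons, 2 were poor (Slc6a2, at least 2.68-fold lower, and Ddc, -1.99 ± 0.17) and none rich. Neither was called with the spike-in zero point, where none of the 9 was poor or rich. The catecholamine enzyme Th and the serotonin transporter Slc6a4 did not pass the filter.

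Genes of synaptic release were rich in 19 of 23, with a median of 3.55 and none poor. Besides Snap25 and Syt1, Syn2, a vesicle-tethering synapsin, was highest (5.37 ± 0.07). Syp, a vesicle membrane protein, was rich (3.35 ± 0.12). The 4 not called were Syn1 (-0.10 ± 0.17), Syngr1 (-0.15 ± 0.37), Bsn (0.21 ± 0.17) and Syn3 (0.31 ± 0.06). Syn1 and Syngr1 had probes on both sides of 0, and with the mean of all probes they read 1.16 and 1.6, so their value depends on the probe.

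Receptor genes on the receiving side were rich as well. Among ionotropic glutamate receptor subunits 11 of 16 tested were rich and none poor (median 2.65), and 15 of 16 were rich under the spike-in zero point. With both RNAs above background on all 5 arrays, 8 of 12 were rich. The AMPA receptor subunit Gria2 had 5.99, 5.95, 6.08, 6.15 and 5.69, with Gria1 at 5.64 ± 0.10, Gria3 at 3.55 ± 0.24 and Gria4 at 3.16 ± 0.29. The lowest reading of Gria2 under an alternative setting was 1.98. Of the NMDA receptor subunits, the targets of the drugs in the other arrays, Grin2b was rich with 3.54, 3.1, 3.89, 3.53 and 2.96. The obligatory subunit Grin1 had 1.16, 0.73, 1.12, 1.11 and 0.73 and was not called. Grin2a (0.82 ± 0.28), for which the reference was never above background, was at least 1.65-fold higher and not called. Both were rich with spike-in centring (1.63 and 1.48). A dim probe cannot reach a large ratio here, so that these values do not rank the subunits by amount. Of 6 metabotropic receptors tested 4 were rich (2 of 4 in the value table), with Grm5 (6.09 ± 0.48) highest and Grm3 at least 14.8-fold higher. All 3 metabotropic receptors with both RNAs above background on all 5 arrays were rich.

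GABA and glycine receptor subunits had 15 rich of 17 tested and a median of 4.29. Of those above background in both RNAs on all 5 arrays, 8 of 10 were rich. The subunit Gabra4 had 7.54, 6.94, 7.40, 7.69 and 6.69, and Gabrb2 had a mean of 6.50 ± 0.18. The lowest reading of Gabrb2 under an alternative setting was 2.40. The metabotropic subunit Gabbr2 (0.53 ± 0.09) and the glycine receptor subunit Glra1 (-0.08 ± 0.20) were not called. Postsynaptic scaffold and adhesion genes had 20 rich of 22 (median 2.60), and 15 of 17 with both RNAs above background on all 5 arrays. In them Dlg4, encoding PSD-95, was rich at 1.49 ± 0.18, Dlgap3 had a higher ratio (5.97 ± 0.11), and the neuroligin gene Nlgn1 was rich too. Shank1 (1.01 ± 0.22) and Homer3 (0.63 ± 0.19) were not called.

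Channel genes were rich in 14 of 20 for sodium, calcium and HCN channels (median 2.27) and 16 of 24 for potassium channels (median 2.16), with none poor. The sodium channel subunits Scn2a (5.94 ± 0.32), Scn8a (5.95 ± 0.28) and Scn2b (5.99 ± 0.28) and the calcium channel subunit Cacnb4 (5.95 ± 0.20) were close together. These readings are from the brightest probe of each gene, and the closeness did not hold under every alternative. Over the settings Scn8a ranged from 1.84 to 6.605, Cacnb4 from 1.70 to 9.09, Scn2a from 4.01 to 7.17 and Scn2b from 5.93 to 6.79. The potassium channels Kcnd2 (7.03 ± 0.56), which carries A-type current in dendrites, and Kcna1 (6.76 ± 0.18), of axons, had high ratios in theirs. Under the spike-in zero point the 2 lists held 17 and 21 rich genes. With both RNAs above background on all 5 arrays, 13 of 17 and 11 of 14 members were rich.

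Axon and cytoskeleton genes were rich in 17 of 21 (median 4.35), led by the kinesin Kif5c (6.77 ± 0.10), and the tau gene Mapt was at 4.85 ± 0.11. Map1b (1.44 ± 0.61, called rich without array 5 at 1.61) and Tubb4a (-0.60 ± 0.16) were among the 4 not called. These readings are from the brightest probe of each gene, and the size of the list median depended on that choice. Of the 21 genes, 12 were rich (median 1.86) when read from the value table. With the mean of probes 15 were rich (median 2.87), and with spike-in centring 19 (median 5.01). Kif5c ranged from 2.56 to 7.43 over the settings. Neuropeptide and granin genes were rich in 16 of 19 (median 3.94). Cck (6.17 ± 0.07, with another probe at 0.26 and 0.29, not called, in the value table), Npy (3.83 ± 0.16) and Sst (3.59 ± 0.07), peptides of hippocampal interneurons, were steady over the arrays, and Nts (-0.74 ± 0.25) was the lowest. Of 9 neural extracellular matrix genes tested 4 were rich, including Ncan (6.84 ± 0.17 on 4 arrays) and Cspg5 (5.72 ± 0.14), and Vcan was poor (-2.12 ± 0.10).

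**Figure D4:**
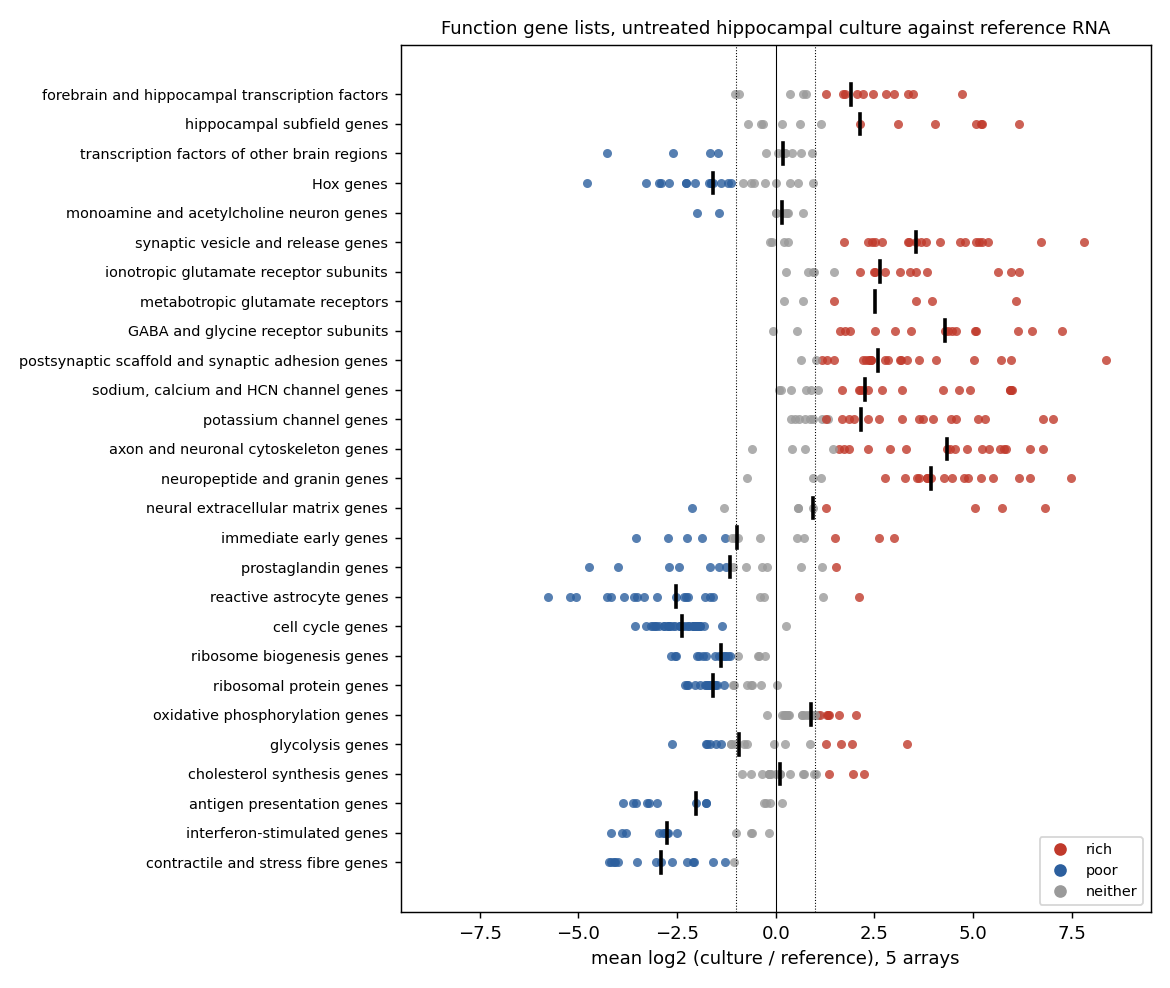
Mean log2 ratio of culture over reference over 5 control arrays for each tested gene of 27 function lists; points are genes coloured by call, black bars are list medians and dotted lines mark 2-fold. Synaptic, receptor and channel lists lie to the right, and cell cycle (median -2.37), interferon-stimulated (-2.76) and contractile genes (-2.92) to the left.

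Immediate early genes, which neurons and many other cells switch on after stimulation, split in both directions: 3 of 14 were rich and 5 poor, or 3 and 3 with the spike-in zero point. Arc, a synaptic protein gene of active neurons, had 2.92, 3.05, 3.04, 2.97 and 3.02, Egr3 had 2.75, 2.35, 2.94, 2.56 and 2.44, and the neuron-specific Npas4 a mean of 1.51 ± 0.14. Egr4, outside this list, was at 7.63 ± 0.17. On the poor side, Fos had -2.40, -2.54, -2.76, -2.25 and -1.26, Ier2 a mean of -3.53 ± 0.12, Egr2 of -2.74 ± 0.09 and Junb of -1.28 ± 0.28. The call on Junb was lost without array 1, 2 or 4 (limma adjusted p of 0.119, 0.104 and 0.0672). It was also lost with the scanner's processed signals (-1.22), no background subtraction (-1.26), median centring (-0.87), the mean of probes (-1.07) and spike-in centring (-0.62). Arc lay above 2-fold on every array and Fos below 2-fold on every array, with array 5 the highest for Fos.

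The series title names prostaglandin-endoperoxide synthase 2, so the prostaglandin genes were read as a list: 1 of 14 tested was rich and 7 poor (median -1.17). Of 10 members above background in both RNAs on all 5 arrays, 2 were rich and 5 poor. With spike-in centring 2 were rich and 4 poor (median -0.51), and with the scanner's processed signals 9 were poor (median -2.51). Ptgs2, the inducible cyclooxygenase, had -1.36, -1.22, -0.97, -1.17 and -0.73 (mean -1.09 ± 0.24) and was not called, with a limma adjusted p of 0.506 against a 2-fold difference. With the scanner's own processed signals it read -1.40 and was called poor. The constitutive enzyme Ptgs1 was poor, with -5.08, -4.65, -5.16, -4.88 and -3.89. The synthase Ptges was poor (-2.70 ± 0.25), as was the phospholipase Pla2g4a (-3.99 ± 0.26). Ptger3, a receptor for prostaglandin E2, was rich with 1.6, 1.45, 1.66, 1.65 and 1.29.

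Genes that astrocytes raise on injury or inflammation were mostly poor against this reference: 17 of 21 tested, with a median of -2.52. The exception in the other direction was the protease inhibitor Serpina3n, with 2.27, 1.89, 1.78, 2.25 and 2.42. The complement gene C3 had -5.24, -5.28, -5.18, -5.17 and -5.17, Lcn2 a mean of -1.67 ± 0.16 (-1.01, not called, with spike-in centring) and Timp1 of -4.17 ± 0.36. Many of these genes are also expressed by fibroblasts and macrophages, so the list is not specific to astrocytes.

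Interferon-stimulated genes were poor in 9 of 13 (median -2.76, with Bst2 at -4.18 ± 0.25 and Ifi44 at -3.91 ± 0.23), and so were antigen presentation genes (9 of 13, median -2.01). With both RNAs above background on all 5 arrays, 6 of 9 interferon-stimulated and 9 of 12 antigen presentation genes were poor. B2m, the light chain of class I molecules, had -3.66, -3.65, -3.78, -3.72 and -3.32. The related heavy chain genes H2-K1 and H2-D1, which probes may not separate, had -3.20 ± 0.24 and -3.55 ± 0.12. The class II genes H2-Ab1 and H2-Eb1 were not called. Contractile and stress fibre genes were poor in 14 of 15 (median -2.92), led by Ccn1 (-4.23 ± 0.09), Myl9 (-4.17 ± 0.26) and Ankrd1 (-4.10 ± 0.06), and Actn1 (-1.06 ± 0.19) was not called.

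Cell cycle genes were poor in 38 of 39, with a median of -2.37. In the culture channel 38 of the 39 were above background on all 5 arrays, so poor here does not stand for absent. Mki67, the proliferation antigen gene, had -3.44, -3.51, -3.19, -3.63 and -4.04. The mitotic genes Top2a (-3.15 ± 0.15), Ccnb1 (-2.61 ± 0.21) and Ccna2 (-2.09 ± 0.14) and the replication licensing genes Cdt1 (-3.30 ± 0.07) and Mcm3 (-3.04 ± 0.10) were poor as well, and Ccne1 was the only one not called (0.27 ± 0.12). Under the spike-in zero point 31 of the 39 were poor and none was rich.

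Promoter motifs with a known link to these gene groups were searched on either strand in RefSeq promoter windows (GRCm38.p6, 250 bases before to 50 after each start), held for 13112 of the tested genes. The first is the core of the RE1 element, bound by REST, the repressor of neuronal genes in other cells, written CAGCACC, any 2 bases, then GGACAG. It stood in 8 genes (0.061%), of which 5 were rich (0.219% of the rich genes), none poor and 3 neither. The 4 rich genes with a match before the start are shown because their values are given here, with the core, here read on the opposite strand, in capitals.
Hrh3, chr2:180104556-180104610, minus strand: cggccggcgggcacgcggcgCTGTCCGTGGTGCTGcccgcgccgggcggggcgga
Fbll1, chr11:35799038-35799092, minus strand: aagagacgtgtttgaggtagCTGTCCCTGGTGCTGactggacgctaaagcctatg
Osbp2, chr11:3774773-3774827, minus strand: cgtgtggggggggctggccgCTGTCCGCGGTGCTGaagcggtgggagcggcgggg
Sptbn4, chr7:27396262-27396316, minus strand: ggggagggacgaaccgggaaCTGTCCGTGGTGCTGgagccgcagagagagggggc
These genes were chosen by the match, after values were known. The presynaptic histamine receptor Hrh3 had 5.04, 5.14, 5.01, 5.03 and 4.71, and Fbll1, a relative of fibrillarin, had 4.25, 4.35, 4.19, 4.35 and 4.20. Osbp2 (2.63 ± 0.25, but 0.56 and not called in the value table), Sptbn4 (1.87 ± 0.21), a spectrin of the axon initial segment, and Ttc9b (4.13 ± 0.18), whose match lies after the start, were rich too. Not called were Fam163b (0.53 ± 0.15), Lca5 (-0.64 ± 0.16) and Lhx3 (0.10 ± 0.05). The count is small, and a match is a description of the letters and not a binding site.

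The second group of motifs is that of cell cycle promoters, the CCAAT box and the cell cycle homology region, searched as CCAAT and as TTTGAAA. The CCAAT letters stood in 23 of the 31 cell cycle genes with a window (74.2%) and in 42.3% of all genes, 43.3% of the rich and 42.8% of the poor genes. The homology region stood in 5 of the 31 (16.1%) and in 5.62% of all genes, 4.43% of the rich and 8.03% of the poor genes, and also in 4 of 11 pan-neuronal markers. Examples from the list, with matches to either motif in capitals, are these.
Cdk1, chr10:69352913-69353002, minus strand: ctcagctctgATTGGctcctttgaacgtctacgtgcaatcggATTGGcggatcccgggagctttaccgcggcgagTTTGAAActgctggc
Ccnb2, chr9:70421627-70421731, minus strand: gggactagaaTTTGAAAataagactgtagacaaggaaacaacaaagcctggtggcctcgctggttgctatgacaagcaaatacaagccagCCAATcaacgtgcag
Kif11, chr19:37376327-37376378, plus strand: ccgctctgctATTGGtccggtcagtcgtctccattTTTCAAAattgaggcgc
The mitotic kinase gene Cdk1 was poor at -2.29 ± 0.15, the cyclin gene Ccnb2 at -2.73 ± 0.15 and the spindle kinesin gene Kif11 at -1.91 ± 0.17 (not called with the mean of probes at -0.97 or spike-in centring at -1.25). No test was made of these shares.

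Ribosome biogenesis genes were poor in 14 of 18 (median -1.39), including Npm1 (-1.99 ± 0.09, not called with spike-in centring at -1.33), Cad (-2.54 ± 0.25) and Myc (-2.52 ± 0.10). Ribosomal protein genes were poor in 15 of 22 (median -1.58), from Rpl10a (-2.30 ± 0.06) to Rps14 (0.04 ± 0.05). These counts depended on the zero point: with spike-in centring 3 of 18 and 4 of 22 were poor, with medians of -0.73 and -0.92 beside 0.71 for all genes. With median centring 9 of 18 biogenesis genes were poor, and with the scanner's processed signals 9 of 22 ribosomal protein genes. Ribosomal protein genes have many processed copies in the genome, which probes may not separate. Oxidative phosphorylation genes lay on the other side, with 6 of 24 rich and none poor (median 0.88), led by Ndufa4 (2.03 ± 0.14), and 15 of 24 were rich with spike-in centring, 12 with median centring and 11 with the scanner's processed signals. Cholesterol synthesis genes lay near the reference with 3 of 18 rich and none poor (median 0.11, and -0.01 when the scanner software's processed signals were read), and 5 were rich with spike-in or median centring and 1 with the mean of probes.

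Of 18 glycolytic genes tested 4 were rich and 6 poor. With spike-in centring 5 were rich and 1 poor, and 2 of 17 were rich when read from the value table. In 24 pairs of related genes 1 was taken here as the neural form, which need not be confined to neural cells. In 24 of 24 the neural form had the higher ratio. It was rich in 23 and not called in 1, Cdk5 (1.10 ± 0.12), whereas the other form was rich in none, poor in 10 and not called in 14. Hexokinase 1 (Hk1) was rich at 1.29 ± 0.22 while Hk2 was poor at -2.62 ± 0.28. Ldhb was rich (3.33 ± 0.13) with Ldha at -0.79 ± 0.39, not called. The glucose transporter Slc2a3 of neurons was rich (1.93 ± 0.15) and Slc2a1 poor (-1.38 ± 0.34). The calls on Hk1 and Slc2a1 were near the threshold: Hk1 was lost without array 1 or 4 (limma adjusted p of 0.0549 and 0.0527) and Slc2a1 without array 1, 2, 3 or 4 (0.059, 0.0684, 0.055 and 0.0524). Hk1 was also lost in the value table (0.34) and with the mean of probes (0.51), and Slc2a1 with the scanner's processed signals (-1.35), median centring (-0.97) and spike-in centring (-0.72).

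The translation factor Eef1a2 was rich (4.27 ± 0.20) and Eef1a1 poor (-1.61 ± 0.04). The neural chromatin subunit Actl6b was rich (2.53 ± 0.29) and Actl6a poor (-1.62 ± 0.22). The call on Eef1a1 was lost with median centring (-1.19) and spike-in centring (-0.95), and that on Actl6a in the value table (-0.85), with the mean of probes (-1.23) and with spike-in centring (-0.96). The splicing regulators Ptbp2 (1.56 ± 0.16, rich) and Ptbp1 (-2.75 ± 0.04, poor) and the tubulins Tubb3 (2.90 ± 0.04, rich) and Tubb6 (-3.51 ± 0.48, poor) were on opposite sides. Ptbp2 and Tubb6 had probes on both sides of 0, from -1.12 to 1.56 and from -3.51 to 1.92, and in the authors' value table Ptbp2 read -1.14 and Tubb6 read 1.93, while with the mean of probes Tubb6 was not called (-0.80). The pairs were chosen with 1 gene taken as the neural form, so their direction was fixed in part by the choice.

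**Figure D5:**
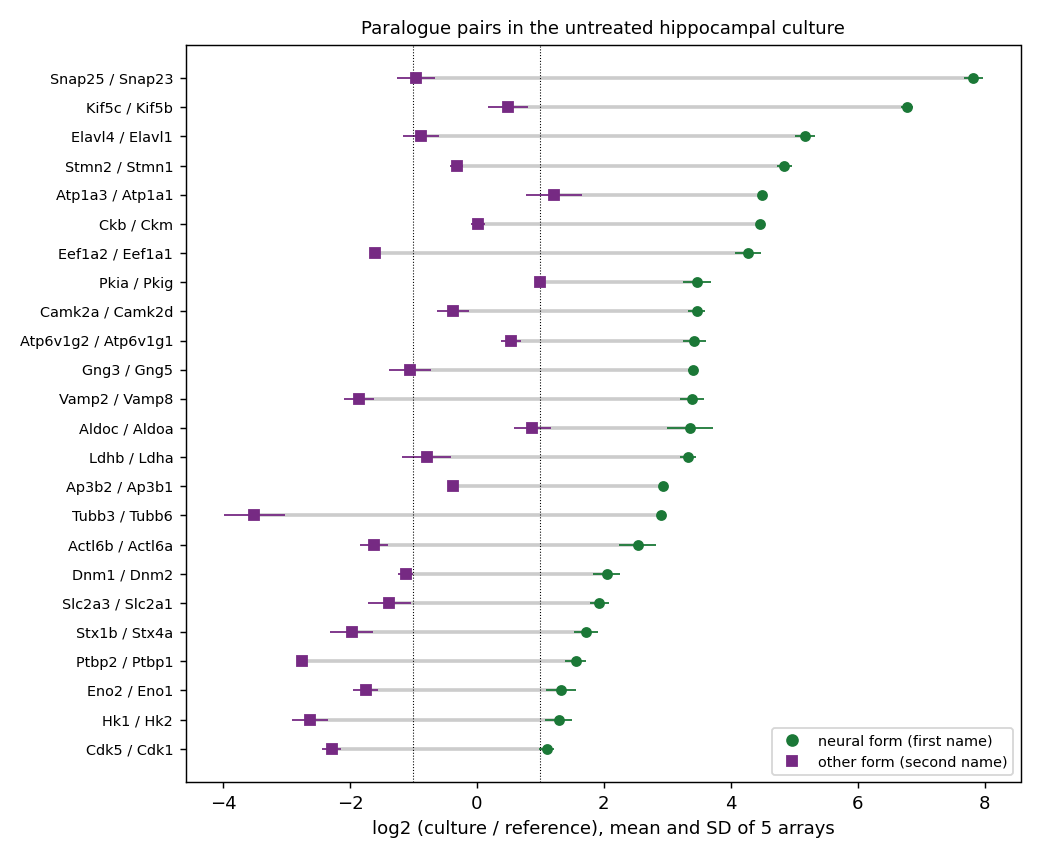
Mean and SD of the log2 ratio of culture over reference on 5 control arrays for 24 pairs of related genes, circles for the neural form and squares for the other form, with dotted lines at 2-fold. The neural form is the higher in each pair, from Snap25 at 7.82 down to Cdk5 at 1.10.

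The genes that varied most over the 5 arrays, among those above background in both RNAs throughout, did so together. Lrrc71 had 0.50, 1.5, 0.78, 3.43 and 3.73, the olfactory receptor gene Olfr430 had 0.71, 1.85, 1.00, 3.53 and 3.68, and Olfr1153, Kcna7, Creb3l3, Galnt5 and Mid1 were likewise highest on arrays 4 and 5. None of these was called, with SDs of 1.33 to 1.5, but without array 1 Lrrc71 (2.36), Olfr430 (2.52) and Olfr1153 (2.47) were called rich, and the last 2 also without array 3 (2.44 and 2.43). Lrrc8c, a subunit of volume-regulated anion channels, differed by 1 array, at -1.07, -1.21, -1.07, -1.18 and 1.66. Arrays 4 and 5 also had the lowest spike-in offsets, -0.80 and -1.06 beside -0.63, -0.64 and -0.16 on arrays 1 to 3, and the part of this in the values of these genes was not tested.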

How the data were processed

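The arrays were Agilent 2-colour mouse arrays with 41174 gene probes. The headers of the files name version 10.7.3.1 of Agilent Feature Extraction, and the submitters' processing notes name 11.0. The deposited scanner files hold the intensity of each spot in both dyes and the scanner's log10 ratio. The deposited value table holds log2 ratios, and its columns followed the loess log2 ratios computed here (slopes of 0.992 to 1.02, r of 0.999 or more), so the scale, centring and direction of the authors' log2 values are known. Genome build and other upstream steps were not given in the sources used here.

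Mean signals were background-corrected (normexp, offset 50) and loess-normalized within arrays in limma 3.58.1 (R 4.3.3), leaving out control and flagged spots. Probes well above background on 3 of 5 control arrays in either channel were kept, and each gene was read from its brightest probe. An intercept was fitted to the 5 arrays and tested with treat against 2-fold. Of 41174 probes 23082 were named by accession, 6582 by symbol and 3073 by synonym through RefSeq (GRCm38.p6), and 8437 kept the file's name. No column of the value table was left unused. On simulated ratios for the 20965 genes, 79% of 100 genes set to 1.5 from 0 on the log2 scale and 99% of 100 set to 2 were recovered. All other genes were kept within 2-fold there, and 178 genes were called, whereas the data had 6346. These shares therefore do not measure recovery in the data. With 5 arrays an exact sign-flip test cannot go below p = 0.0625, so no gene was tested by it. The number of arrays limits the precision.

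The members and gene lists were chosen with earlier results of these data known, and lists have counts and medians and no test. Genes named are the 15 highest and lowest, the 10 largest bounds on each side, the first 4, 3 highest and 3 lowest of each list, the related pairs and the 10 most variable. Named outside this rule, with values seen, were Epcam, Grin1, Grin2b, Mcm3, Timp1 and Zbtb20 and the genes with promoter matches. Some genes that the rule names are not reported here. The alternatives tried were other signals and backgrounds, median centring, the value table, 2 filters, the mean of probes, other test thresholds, all 20 arrays with and without slide as a random block, and each array left out. Spike-in centring was added after seeing the data.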

Additional observations from a re-analysis of the deposited data

Results flagged for a closer look

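The spike-in transcripts, which the main fit does not use, read lower than their known ratio: on the loess scale their mean offset over the control arrays was -0.657 (SD 0.331, from -1.06 to -0.156). This offset is the source of the second zero point in the text. In the scanner software's fit of observed on known ratios, the slopes on the control arrays were 0.850 to 0.894, so known ratios were also compressed. Whether the fold values of genes are shrunk likewise was not tested.

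In 6 of 49 lists the list mean of 1 array stood apart from the other 4 by Dixon's test (95% critical value 0.71), where chance flags about 1 in 20 groups. Array 4 was highest for fibroblast and meningeal markers (-2.85, others -3.14 to -3.06) and for pluripotency genes (0.204, others 0.0298 to 0.0758). Array 5 was highest for reactive astrocyte genes (-2.18, others -2.70 to -2.61) and antigen presentation genes (-1.86, others -2.12 to -2.06), and lowest for cholesterol synthesis genes (0.0885, others 0.425 to 0.503). Array 2 was highest for cell cycle genes (-2.14, others -2.43 to -2.35).

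By the same test 20 of the 226 genes named had 1 array apart. Array 5 stood above the others for Emx2 (1.59), Lrrc8c (1.66), H2-K1 (-2.78), Tubb6 (-2.67), B2m (-3.32), Cd14 (-3.48), Efemp1 (-4.57) and S100a6 (-5.45). Array 5 stood below the others for Gpm6a (8.23), Celf3 (7.25), Kcnd2 (6.07), Hrh3 (4.71) and Eef1a2 (3.92). Array 3 stood below the others for Sparcl1 (8.12), Grm3 (3.21) and Hopx (2.49). Array 4 stood above the others for Cck (6.29). Array 4 stood below the others for Hoxc9 (-5.09). Array 2 stood above the others for Ndufa4 (2.26). Array 1 stood below the others for Insl3 (-2.42). In log2 ratios, the widest gap was that of Lrrc8c, with the other 4 arrays between -1.21 and -1.07.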

How the results depend on the processing

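The counts of 3243 rich and 3103 poor genes moved by over 1.5 times under 4 alternatives. With spike-in centring, chosen after seeing the data, 4893 were rich and 1288 poor. Here the offsets of the arrays, which differ by an SD of 0.331, enter every gene, and limma gave all genes 1 pooled spread, so that variable genes such as Lrrc71 pass its test. With the scanner's processed signals 4760 were poor. A test against 1.5-fold gave 4721 poor genes, and a test against 0 gave 9224 higher and 8448 lower, by construction. Leaving out each array in turn gave 3093 to 3262 rich and 2937 to 3086 poor genes. Of the 226 genes named, counting genes called under either setting, the direction turned in these cases: Ptbp2 (-1.14) and Tubb6 (1.93) in the value table, and Ptbp2 (-0.0040), Syn1 (1.16) and Syngr1 (1.6) with the mean of probes, all with probes that disagree. The calls of 8 named genes were lost in the value table and of 10 with spike-in centring, and all 226 kept theirs with all 20 arrays fitted. The value table holds 20674 probes beside 41174 on the arrays. A gene whose brightest probe is absent from it was read there from another probe, or not at all. Medians of the endothelial, mural, ependymal, B cell, melanocyte and cholesterol lists changed sign under 1 or 2 alternatives. The other list medians kept their sign, but many changed in size. Among the wide ranges were inhibitory neuron markers (1.99 to 4.25), axon and cytoskeleton genes (1.86 to 5.01) and Hox genes (-3.73 to -0.93). A narrow range was that of contractile genes (-2.97 to -2.26). No paired analysis was possible because 1 group was compared with the reference on its own arrays. Signal over background limits dim genes: their ratios cannot be large after the added constant of 50.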
